A study of Mus musculus with 44 samples.

Results

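DNA methylation of whole blood was set against that of frontal cortex in mice 24 h after an injection of lipopolysaccharide (LPS), a bacterial endotoxin that sets off inflammation. The libraries were chosen by their labels: 3 of blood and 4 of cortex, 7 of the 44 libraries in the series. The positions compared were the 1134865 cytosines, matched by chromosome, start and strand, that stood in both 24 h tables, of 1191151 in the blood table and 1370712 in the cortex table. The assay was reduced representation bisulfite sequencing (RRBS), which reads mainly CpG-dense fragments, and each value is the percent of reads methylated at a cytosine (0 to 100).

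Both groups came from wild-type male C57BL/6J mice of 8 to 12 weeks in a model of Gulf War Illness. All of them, those given saline included, had drunk corticosterone (CORT) at 200 mg/L in 0.6% ethanol for 7 days. Each then received diisopropyl fluorophosphate (DFP), an irreversible acetylcholinesterase inhibitor, at 4 mg/kg on day 8. CORT was repeated every other week over 5 weeks in all. The blood and cortex libraries at the centre here were taken 24 h after LPS at 0.5 mg/kg. They were set beside libraries taken 6 h (4 of blood and 4 of cortex) and 12 h (3 of blood and 4 of cortex) after LPS, hippocampus at 24 h (4) and saline libraries (4 of blood and 4 of cortex, taken at 6 h). The title of the series asks how far brain and blood agree. Nothing in the labels tells whether blood and cortex came from the same mice, or whether each replicate is a mouse of its own. The p-values therefore measure the spread between these libraries, which may be technical.

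Methylation of cytosine at CpG sites is laid down by DNA methyltransferases and removed through oxidation by TET enzymes. Each cell type keeps its own pattern, with CpG islands at the starts of broadly used genes mostly unmethylated and the enhancers and starts of a lineage's own genes unmethylated mainly in that lineage. Bisulfite sequencing reads 5-methylcytosine and 5-hydroxymethylcytosine, which is abundant in neurons, as one signal. Blood and cortex are mixtures of cells, so a different share of cell types and a different methylation within a cell type cannot be told apart in these data.

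The sequences of 6 gene starts show where the tissues part. They are the 250 bases before the transcript start (RefSeq, GRCm38.p6), given 5′ to 3′ on the gene's own strand, and capitals mark the CpGs measured in both tissues. Of the named genes whose region within 1000 bp of the start was called, these had the largest difference in this window, 3 in each direction. The first 3 were more methylated in blood: Hoxa5 (a homeobox gene of body-axis patterning, chr6:52204588-52204837, minus strand), Mcts2 (an imprinted retrogene inside H13, chr2:152686898-152687147, plus strand) and Igf2r (the imprinted receptor that clears IGF2, chr17:12769707-12769956, minus strand). The others were less methylated in blood: Tie1 (a receptor tyrosine kinase of endothelial cells, chr4:118489850-118490099, minus strand), Csf3r (the receptor for granulocyte colony-stimulating factor, chr4:126024409-126024658, plus strand) and Aldh1l1 (a folate enzyme used as an astrocyte marker, chr6:90550543-90550792, plus strand).
Hoxa5: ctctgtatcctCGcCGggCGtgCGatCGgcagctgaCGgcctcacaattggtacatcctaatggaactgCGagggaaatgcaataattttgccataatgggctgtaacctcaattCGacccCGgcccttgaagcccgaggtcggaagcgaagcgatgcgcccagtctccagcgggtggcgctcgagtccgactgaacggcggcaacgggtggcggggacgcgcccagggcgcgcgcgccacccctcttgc
Mcts2: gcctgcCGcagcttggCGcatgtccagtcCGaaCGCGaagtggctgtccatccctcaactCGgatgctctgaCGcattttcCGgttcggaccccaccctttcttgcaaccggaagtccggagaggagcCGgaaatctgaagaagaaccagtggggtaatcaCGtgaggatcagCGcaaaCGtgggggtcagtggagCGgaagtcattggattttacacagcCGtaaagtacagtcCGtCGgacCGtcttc
Igf2r: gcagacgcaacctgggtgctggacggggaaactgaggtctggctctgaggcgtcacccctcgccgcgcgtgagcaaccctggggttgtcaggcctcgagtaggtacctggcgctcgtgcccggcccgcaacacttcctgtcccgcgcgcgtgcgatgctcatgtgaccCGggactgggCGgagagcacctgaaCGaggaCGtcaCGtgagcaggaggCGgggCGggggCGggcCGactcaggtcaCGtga
Tie1: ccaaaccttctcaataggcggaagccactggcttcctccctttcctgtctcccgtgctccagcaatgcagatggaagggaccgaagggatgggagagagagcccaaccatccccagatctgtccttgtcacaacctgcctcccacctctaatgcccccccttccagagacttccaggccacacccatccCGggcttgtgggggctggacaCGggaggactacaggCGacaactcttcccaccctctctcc
Csf3r: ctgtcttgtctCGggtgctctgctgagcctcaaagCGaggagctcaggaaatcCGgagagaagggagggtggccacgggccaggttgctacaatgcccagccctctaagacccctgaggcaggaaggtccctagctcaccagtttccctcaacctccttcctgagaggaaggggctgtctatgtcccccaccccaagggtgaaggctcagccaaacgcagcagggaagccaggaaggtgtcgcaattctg
Aldh1l1: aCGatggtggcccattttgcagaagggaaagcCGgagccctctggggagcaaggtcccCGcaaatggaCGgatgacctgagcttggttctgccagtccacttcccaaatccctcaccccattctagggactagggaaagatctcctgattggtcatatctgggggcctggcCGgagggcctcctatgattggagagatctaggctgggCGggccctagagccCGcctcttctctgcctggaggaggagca

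Window averages were taken over cytosines, so a CpG read on both strands weighs more than a CpG read on 1. The windows were chosen for their difference in these same libraries, and neighbouring CpGs are not separate observations. Counts of CpGs here and in the next paragraph therefore describe the windows only. Over all tested windows of 1000 bp, blood lay above cortex in every library in 32.8% and below it in 18.7%. The like share over single CpGs was not counted. In the window of Hoxa5 the 12 measured cytosines of 9 CpGs averaged 66.7, 79.4 and 66.2% in the 3 blood libraries, against 3.26, 6.52, 9.95 and 3.05% in the 4 cortex libraries. Every one of the 9 CpGs lay above cortex in every blood library, by 47.3 to 81.4 points. Mcts2 averaged 90.0, 94.2 and 88.5% in blood, against 29.4, 38.2, 42.7 and 31.7% in cortex, and all 17 of its measured CpGs were above cortex in every blood library. The lowest blood library of Mcts2 stood far above the highest cortex library. Igf2r averaged 37.4, 38.3 and 31.0% in blood, against 4.84, 1.57, 4.88 and 1.75% in cortex, and its 10 CpGs differed by 30.3 to 33.9 points.

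Tie1 averaged 5.31, 0 and 1.90% in blood over 3 CpGs, against 63.6, 67.2, 77.5 and 65.7% in cortex. Csf3r averaged 2.26, 3.40 and 0.513% in blood, also over 3 CpGs, against 54.0, 52.2, 63.2 and 49.7% in cortex. In both genes each CpG was lower in every blood library than in any cortex library. Aldh1l1 averaged 8.67, 10.1 and 3.94% in blood over 9 cytosines of 7 CpGs, against 35.1, 31.3, 26.4 and 27.5% in cortex. Of its CpGs, 6 were below cortex in every blood library and 1 overlapped. A call by limma's moderated test over the wider region within 1000 bp of the start was a condition for choosing these 6 genes. Passing that test is therefore no further support. The differences over that region were 63.6 (Hoxa5), 54.3 (Mcts2), 30.6 (Igf2r), -70.9 (Tie1), -58.3 (Csf3r) and -24.1 points (Aldh1l1). The limma adjusted p ran from 7.23e-07 (Tie1) to 3.10e-05 (Aldh1l1). Of all 1450 starts tested, 35.7% were called higher in blood and 16.7% lower.

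**Figure D1:**
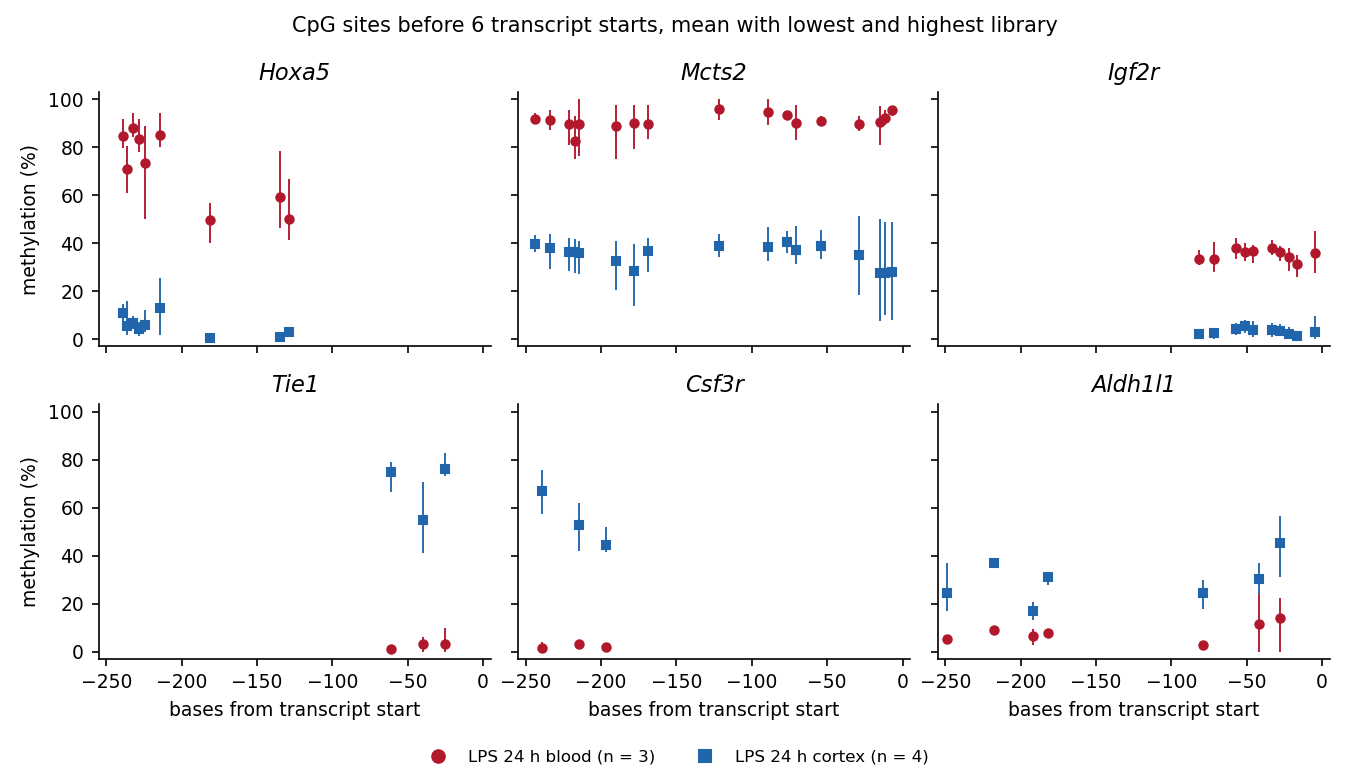
Percent methylation (y axis, linear, 0 to 100) of each measured CpG by its distance from the transcript start in bases (x axis) for the 6 genes whose sequences are printed. Blood (n = 3 libraries) is drawn in red and cortex (n = 4) in blue, with the mean as a point and the lowest and highest library as a bar. In Hoxa5, Mcts2 and Igf2r every blood point lies above cortex, and in Tie1 and Csf3r every blood point lies below.

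Averaged over all shared cytosines, blood and cortex were close. The mean level was 32.9, 34.4 and 32.3% in blood (33.2 ± 1.05, SD, n = 3), against 30.8, 31.8, 31.7 and 30.3% in cortex (31.2 ± 0.726, n = 4). Every blood library was above every cortex library, by 2.03 points between the means (exact permutation test, two-sided, p = 0.0571, the smallest that 3 against 4 libraries can give; 0.08 adjusted over 7 classes of cytosine). The median over cytosines was 2.57 ± 0.432% in blood and 2.08 ± 0.461% in cortex, and here the groups overlapped (exact p = 0.286).

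The gap was widest inside genes. Cytosines inside genes and more than 1000 bp from a gene end (33.9% of all) averaged 48.4 ± 1.39% in blood and 44.5 ± 1.01% in cortex, 3.88 points apart with no overlap (exact p = 0.0571). Within 1000 bp of a gene end (44.2% of cytosines), where CpG islands sit, the means were 5.69 ± 0.428% in blood and 4.76 ± 0.348% in cortex (exact p = 0.0571). Outside genes they were 65.2 ± 2.02% in blood and 63.8 ± 1.16% in cortex, and the groups overlapped (exact p = 0.343).

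Cytosines at intermediate levels were fewer in blood. The share between 20 and 80% was 10.6, 9.59 and 13% of cytosines in blood (11.1 ± 1.74), against 15.1, 14.7, 15.4 and 15.6% in cortex (15.2 ± 0.38), with no overlap (exact p = 0.0571). The spread among the blood libraries was wider than among those of cortex. Shares at exactly 0% averaged 42.2 ± 1.4% in blood and 45.6 ± 1.83% in cortex (exact p = 0.114), and these shares depend on a read depth that the tables do not give. Any 2 of the 7 libraries had equal values at 32.9 to 41.6% of cytosines, so none was a copy of another.

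For tests, cytosines were averaged over windows of 1000 bp (1 kb tiles) that held 3 cytosines or more. A tile was called where limma gave a Benjamini-Hochberg adjusted p under 0.05 and the means differed by at least 10 points. Of 92104 tiles, 66389 had a mean level of 5 to 95% and were tested. Blood was higher in 17515 of them (26.4%) and lower in 8157 (12.3%). Tiles with differences of at least 50 points numbered 2117 with blood higher and 1244 with blood lower, while the median SD among libraries was 3.03 points in blood and 3.22 in cortex. Blood lay above cortex in every library in 21795 tiles (32.8%) and below it in 12430 (18.7%). Single cytosines gave a like split, with 106109 higher (24.0%) and 54233 lower (12.3%) of 441285 tested.

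Most tiles had the same broad level in both tissues. Both were under 20% in 24821 tiles (26.9%), of which 69.1% lay within 1000 bp of a gene end, and both were over 80% in 35800 (38.9%). Full switches were rare: 350 tiles were over 80% in blood and under 20% in cortex, and 262 were under 20% in blood and over 80% in cortex. A far more frequent pattern was a methylated tile in blood at an intermediate level in cortex, in 12311 tiles (13.4%), against 3822 (4.15%) that were intermediate in blood and over 80% in cortex. Tiles between 20 and 80% made up 17.5% in blood and 27.5% in cortex.

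**Figure D2:**
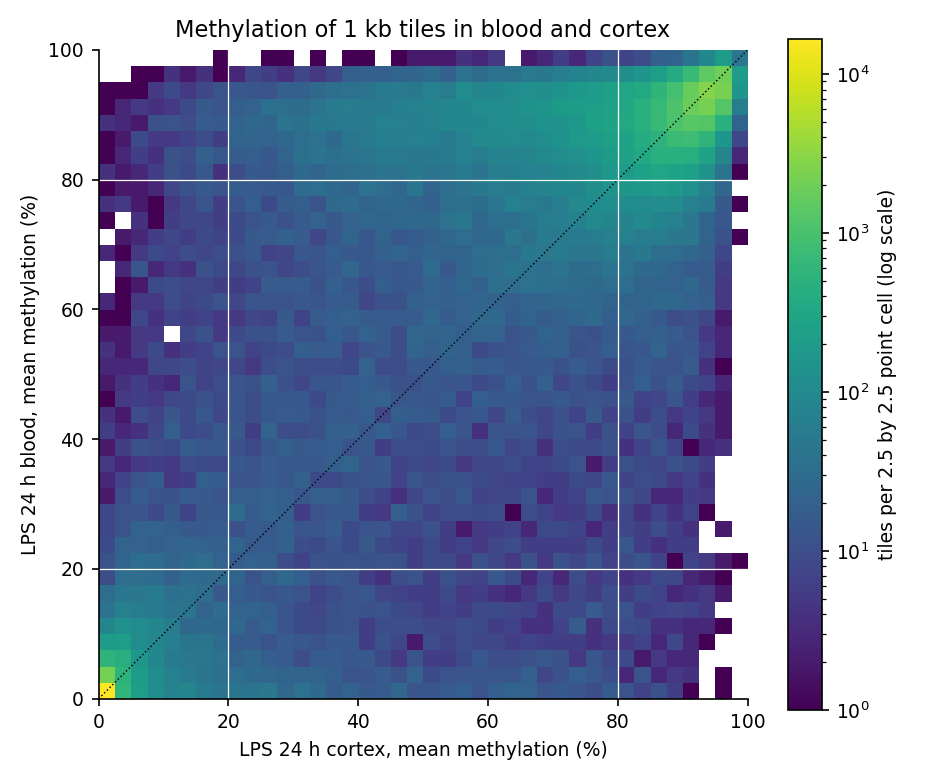
Mean percent methylation of each 1 kb tile in LPS 24 h blood (y axis, n = 3 libraries) against LPS 24 h cortex (x axis, n = 4), as a density of the 92104 tiles on a log colour scale. White lines stand at 20 and 80% and the dotted line marks equality. Most tiles lie in the corners under 20% or over 80% in both tissues, and the upper middle field (over 80% in blood, 20 to 80% in cortex) holds 12311 tiles.

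The excess of higher tiles was smaller outside genes than inside. Within 1000 bp of a gene end 28.8% of 6897 tested tiles were higher in blood and 13.8% lower. Farther inside genes the shares were 31.8% higher and 12.3% lower of 30450, and outside genes 20.2% higher and 11.9% lower of 29007. Of the densest tiles, those with 21 cytosines or more, only 1451 of 12913 were in the tested range, and of these 24.7% were higher in blood and 9.37% lower.

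The sex chromosomes stood apart from the autosomes, on which 22.2 to 30.3% of tiles were higher in blood. Chromosome X gave 102 higher tiles (10.7%) and 110 lower (11.5%) of 955. On chromosome Y no tile was higher and 94 of 106 were lower (88.7%). The 866 cytosines of chromosome Y averaged 63.4, 69.0 and 60.9% in blood, against 84.8, 85.8, 87.0 and 84.0% in cortex, a difference of -21.0 points with no overlap (exact p = 0.0571). Saline blood had 70.7 to 71.3% and saline cortex 84.3 to 86.0% on the same chromosome, so the lower level in blood was present in both treatments.

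The tiles with the largest differences were taken from those with at least 5 cytosines, with groups that did not overlap and with exactly 1 protein-coding gene in reach, 10 in each direction. Among the 10 that were higher in blood were Runx1 (a transcription factor required for blood stem cells), Rasal3 (a RAS GTPase-activating protein of leukocytes), Carmil2 (a scaffold of lymphocyte costimulation), Sipa1 (a RAP1 GTPase-activating protein), the homeobox gene Hoxb3 and Casz1 (a zinc finger transcription factor). The 10 that were lower in blood included P2rx7 (an ATP-gated cation channel of immune cells) and Cd247 (the zeta chain of the T cell receptor complex).

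The Runx1 tile (chr16:92605001-92606000, 20 cytosines, inside the gene) had 90.4, 97.8 and 95.5% in blood, against 2.76, 6.78, 2.24 and 2.5% in cortex. Blood was almost fully methylated there and cortex almost free of methylation, a difference of 91.0 ± 3.23 points (SE, limma adjusted p = 3.24e-09). The Hoxb3 tile (chr11:96344001-96345000, 14 cytosines) had 86.5, 92.6 and 92.5% in blood, against 1.57, 2.51, 2.51 and 2.47% in cortex. The Rasal3 tile (chr17:32396001-32397000, 42 cytosines) had 93.3, 92.8 and 87.9% in blood, against 3.58, 4.84, 4.21 and 2.28% in cortex. In both, all blood libraries were near full methylation and all cortex libraries near none. The Casz1 tile (chr4:148952001-148953000), the most densely measured with 47 cytosines, had 89.8, 89.5 and 88.6% in blood, against 1.41, 3.97, 2.12 and 2.70% in cortex. The Sipa1 tile (chr19:5654001-5655000) had 94.4, 97.6 and 95.7% in blood, against 3.12, 17.3, 9.87 and 6.67% in cortex, the widest spread within cortex of the 10. The remaining tiles lay in Carmil2 (87.4 points), Smarcd1 (a subunit of the SWI/SNF chromatin remodelling complex, 86.6), Taok3 (a protein kinase, 86.6), Agap2 (a GTPase-activating protein abundant in brain, 86.5) and Ccm2l (86.2).

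The P2rx7 tile (chr5:122678001-122679000, 10 cytosines, inside the gene) had 1.64, 1.47 and 1.22% in blood, against 96.7, 96.9, 94.7 and 94.2% in cortex. It had the largest difference of the 20 named tiles, -94.2 ± 3.33 points (SE, limma adjusted p = 3.24e-09). The Cd247 tile (chr1:165781001-165782000, 6 cytosines) had 1.16, 3.25 and 2.53% in blood, against 87.1, 84.0, 91.1 and 87.7% in cortex. The Tapt1 tile (chr5:44223001-44224000) had 2.97, 13.8 and 3.0% in blood, against 89.1, 95, 91.2 and 88.6% in cortex, with blood library 2 above the other blood libraries. Over these 3 tiles the highest blood library stood at 13.8% and the lowest cortex library at 84.0%. The others lay at Shisal1 (-88.3 points), Tspoap1 (-86.9), Gsr (glutathione reductase, -85.9), Septin9 (a cytoskeletal GTPase, -85.5), Itsn1 (an endocytic scaffold, -85.3), Galnt2 (an O-glycosylation enzyme, -83.8) and Rnf144b (a ubiquitin ligase, -83.7). The Tspoap1 and Gsr tiles lay within 1000 bp of the gene end but outside its span. These tiles held 5 to 11 cytosines, fewer than the 8 to 47 of the tiles that were higher in blood.

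**Figure D3:**
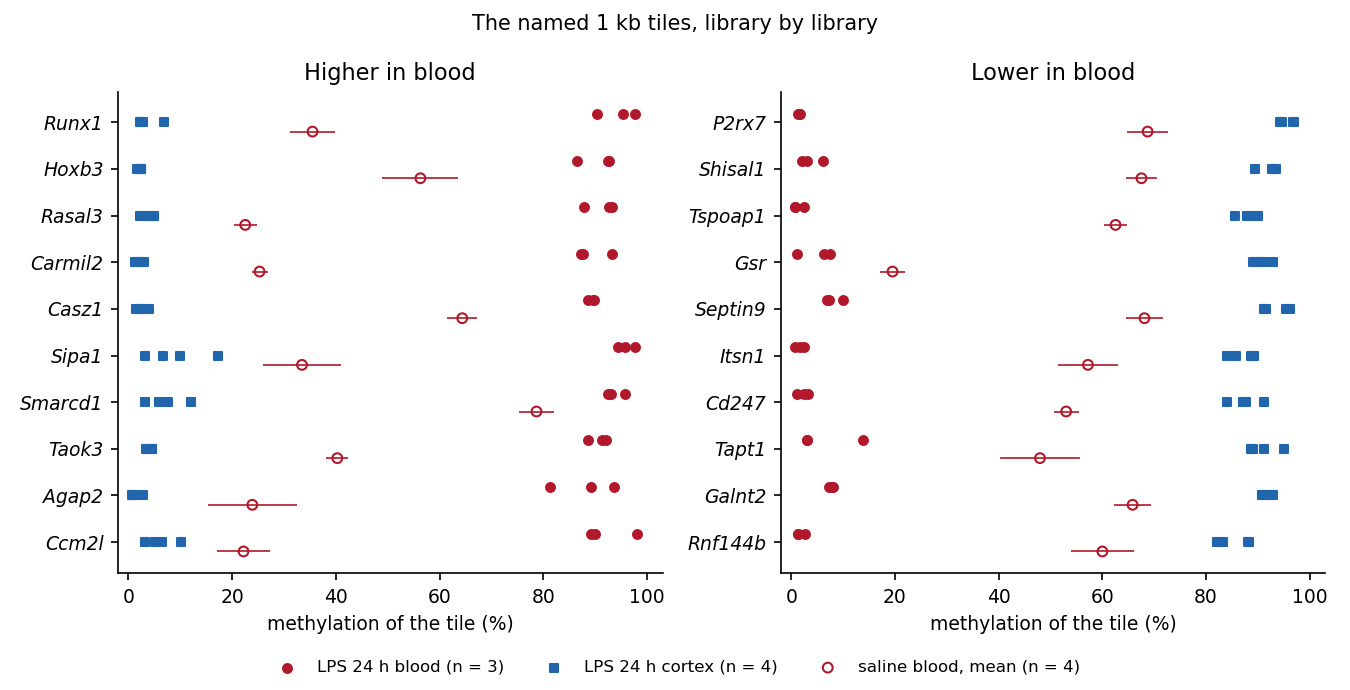
Percent methylation (x axis, linear) of the 20 named 1 kb tiles, one row a tile, in LPS 24 h blood (red dots, n = 3 libraries) and LPS 24 h cortex (blue squares, n = 4), with the mean of saline blood as an open circle and its SD as a bar (n = 4). Blood and cortex sit at opposite ends in every row, and every saline blood mean lies between them.

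Hippocampus gave a second brain region at 24 h, over those cytosines of its table that also stood in both 24 h tables of blood and cortex. A tile could therefore hold fewer cytosines in hippocampus. The Runx1 tile averaged 4.80% there, that of Hoxb3 2.76% and that of Rasal3 2.68%, all near the cortex levels. The P2rx7 tile averaged 93.0% and that of Cd247 80.7% in hippocampus. The Itsn1 tile stood at 58.4% in hippocampus, against 1.65% in blood and 86.9% in cortex.

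Most called tiles had no adjoining called tile of the same direction. A run ended wherever the adjoining tile had fewer than 3 cytosines or a mean level outside the tested range. Run length therefore depends on which tiles were measured, and the share of called tiles with a tested neighbour was not counted. Runs of called neighbours of 1 direction were at most 4 tiles long, with 8 such runs higher in blood and 2 lower. A second region of Runx1 (chr16:92693001-92697000, 46 cytosines over 4 tiles) averaged 66.1% in blood and 15.6% in cortex. Runs higher in blood lay at Fmnl1 (a formin of blood cells, 84.6% in blood and 32.7% in cortex), Tnfaip2 (73.1% in blood and 25.3% in cortex), Pnoc (the nociceptin precursor, 77.2% in blood and 45.5% in cortex) and Got1 (85.4% in blood and 47.7% in cortex). Others lay at Mn1 (55.1% in blood and 15.2% in cortex) and Stx1a (a syntaxin of synaptic vesicle release, 86.2% in blood and 46.6% in cortex). The last of the 8, chr8:108245001-108249000, touched no gene. Both runs that were lower in blood lay in genes: Plxnd1, a semaphorin receptor, with 67.5% in blood and 91.1% in cortex, and the neighbours Catsperz and Kcnk4 with 20.3% in blood and 39.1% in cortex.

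Genes were compared by the mean over their span with 1000 bp on each side (at least 5 cytosines, mean level 5 to 95%). A call took an adjusted p under 0.05 and 5 points or more between the means. Blood was higher in 2644 of 11560 genes (22.9%) and lower in 884 (7.65%), and the median difference was 1.43 points. Centring the libraries on their own means, which takes the mean difference of 2.03 points out of every gene and leaves a median of -0.60, gave 1833 higher and 1387 lower, so 56.9% of calls were higher in place of 74.9%. The shares over all genes, 22.9% higher and 7.65% lower, stand as background for the lists that follow, and the lists were chosen with earlier results of these data known.

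Most neutrophil markers had less methylation in blood. Of 10 tested 9 were lower (90.0%, against 7.65% of all genes) and 1 higher, with a median difference of -24.4 points, and centring left these counts as they were. Cebpe, the transcription factor of terminal granulocyte maturation, had 20.7, 28.7 and 16.4% in blood, against 86.7, 89.0, 88.4 and 87.2% in cortex. Its difference was -65.9 ± 2.58 points (SE, limma adjusted p = 5.95e-07), with no overlap. Prtn3, which encodes proteinase 3 of neutrophil granules, had 4.74, 6.99 and 4.34% in blood, against 52.7, 54.6, 55.3 and 50.4% in cortex. Csf3r differed over the whole gene by -48.2 points and Mpo, myeloperoxidase, by -47.9. The exception was Gfi1, a transcriptional repressor of granulocyte development, with 10.9, 11.1 and 9.62% in blood, against 1.95, 2.14, 2.49 and 1.45% in cortex.

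Of 21 tested pan-leukocyte signalling genes 10 were lower in blood (47.6%), 3 higher (14.3%) and 8 not called (13 lower and 3 higher after centring), with a median of -5.57 points. Spi1 (chr2:91082374-91115759), which encodes PU.1, a transcription factor of myeloid and B cell development, had 5.19, 16.2 and 8.15% in blood, against 80.7, 78.6, 74.6 and 78.8% in cortex. The groups were 58.5 points apart at their nearest libraries, and the difference was -68.4 ± 2.58 points (SE, limma adjusted p = 5.06e-07). Rac2, a GTPase of blood cells, had 49.4, 49.6 and 46.8% in blood, against 81.7, 83.5, 81.2 and 82.2% in cortex. Vav1, a guanine nucleotide exchange factor, differed by -33.7 points, and Itgal, the alpha chain of the integrin LFA-1, was also lower (36.2 ± 0.591% in blood and 66.3 ± 1.80% in cortex). Ptprc, which encodes CD45, differed by -9.22 points over 8 cytosines (0.427 ± 0.241% in blood and 9.64 ± 2.67% in cortex). Its mean level lay just inside the lower limit of 5%, and it left the tested range without blood library 2 or cortex library 2.

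The 3 exceptions were Runx3 (36.2 ± 1.25% in blood and 20.4 ± 1.37% in cortex), Runx1 (47.8 ± 2.13% in blood and 33.9 ± 0.479% in cortex) and Dock2 (83.4 ± 2.87% in blood and 73.5 ± 2.29% in cortex). Tiles within these genes went both ways. Over all 37347 tested tiles that touch a gene, 31.2% were higher in blood and 12.6% lower. Of 19 tested tiles of Runx1 10 were higher in blood and 3 lower, of 12 of Runx3 6 were higher and 1 lower, and of 15 of Dock2 5 were higher and 1 lower. In Dock2, an exchange factor of leukocyte migration, the lower tile (chr11:34783001-34784000) was within 1000 bp of the gene end and averaged 0.309% in blood and 74.8% in cortex over 3 cytosines. These tiles within listed genes, and those below, were picked as each gene's largest difference after the values were seen.

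Lymphocyte markers were divided. Of 17 tested T cell markers 3 were higher in blood (17.6%) and 5 lower (29.4%; 2 and 5 after centring), and of 10 B cell markers 3 were higher and 3 lower (30.0% each; 2 and 3 after centring). The median difference was 0.383 points over the T cell markers and 0.362 over the B cell markers. Cd79b, a subunit of the B cell receptor, had 2.27, 7.19 and 4.43% in blood, against 75.9, 74.4, 71.5 and 65.7% in cortex, a difference of -67.2 points. Cd27, a costimulatory receptor, had 32.2, 34.1 and 28.3% in blood, against 65.5, 68.5, 67.1 and 60.2% in cortex. Lat, the adaptor of T cell receptor signalling, differed by -28.0 points and Ccr7, a lymph node homing receptor, by -22. In the other direction Cd5 had 68.7, 75.2 and 65.0% in blood, against 47.6, 49.7, 49.8 and 45.5% in cortex. Cd3d had 4 cytosines, too few for the test, and all were at 0% in blood, against a mean of 60.8 ± 9.47% in cortex.

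Transcription factors of lymphocytes held tiles of both directions. The shares over all tested tiles that touch a gene, 31.2% higher and 12.6% lower, stand as background here and for later counts of tiles within genes. In Gata3, a T cell regulator, the tile chr2:9874001-9875000 averaged 87.1 ± 2.21% in blood and 6.2 ± 1.72% in cortex. In Bcl11b, which T cells and cortical neurons both use, 10 of 22 tested tiles were higher in blood and 1 lower, and over the gene the means were 49.6 ± 1.54% in blood and 38.3 ± 1.95% in cortex. Of 13 tested tiles of Lef1 5 were higher and 1 lower, near those shares. Of 19 of Pax5, the B cell identity factor, 3 were higher and 6 lower.

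Of 6 tested monocyte markers 1 was higher (16.7%) and 2 lower (33.3%; median -1.57 points), and centring left these counts as they were. Of 7 erythroid and platelet markers 2 were higher (28.6%) and 1 lower (14.3%; median -0.697, 2 and 2 after centring). Of 2 natural killer cell markers 1, Il2rb, was lower (median -4.51). Il2rb lost its call without blood library 1 or 3 or cortex library 1, 2 or 3. Both natural killer cell markers were lower after centring and without blood library 2. Fcgr1, a high-affinity immunoglobulin receptor, had 55.3, 52.9 and 57.4% in blood, against 16.8, 17.4, 23.2 and 23.4% in cortex. Irf8, a transcription factor of monocyte development, held 5 tiles lower in blood and none higher, of 7 tested, and averaged 40.1 ± 1.53% in blood and 52.1 ± 1.17% in cortex. Pf4, a platelet chemokine, had 2.08, 3.68 and 1.85% in blood, against 49.4, 59.8, 41.0 and 71.7% in cortex over 5 cytosines. The cortex libraries were far apart at Pf4, but none came near blood (-53.0 ± 6.22 points, SE, limma adjusted p = 0.000164).

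Of 24 tested neuronal and synaptic genes 12 were higher in blood (50%, against 22.9% of all genes), 11 were not called and 1 was lower (10 higher and 1 lower after centring), with a median of 5.54 points. Camk2a, the alpha subunit of calcium/calmodulin-dependent kinase II, had 74.3, 77.9 and 72.0% in blood, against 46.2, 50.3, 45.7 and 44.6% in cortex. Dlg4, which encodes the postsynaptic scaffold PSD-95, had 76.6, 78.3 and 73.4% in blood, against 48.6, 49.4, 48.9 and 48.6% in cortex. Gria1, an AMPA-type glutamate receptor subunit, had 74.6, 76.6 and 73.1% in blood, against 53.1, 54.4, 55.4 and 52.5% in cortex. In these 3 genes the lowest blood library was above the highest cortex library by 21.6 points (Camk2a), 24.0 points (Dlg4) and 17.7 points (Gria1). Shank3, a postsynaptic scaffold, held 8 tiles higher in blood of 12 tested, Grin2b, an NMDA receptor subunit, 9 of 15 and Camk2b 10 of 14, and none of the tested tiles of these 3 genes was lower. Of 54 tested tiles of Rbfox3, which encodes the neuronal marker NeuN, 26 were higher and 7 lower. The exception was Vip, a neuropeptide of interneurons, with 21.9, 21.6 and 19.3% in blood, against 39.2, 43.6, 44.3 and 38.7% in cortex. Syn1, on chromosome X, averaged 35.7 ± 9.35% in blood and 32.6 ± 3.27% in cortex and did not pass the test (limma adjusted p = 0.534). Without blood library 3 it passed at 7.94 points (adjusted p = 0.0426), and without blood library 2 the difference was -1.37 points.

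Of 11 tested neural transcription factors 3 were higher (27.3%) and 1 was lower (9.09%), near the shares over all genes. The median was -0.535 points, and the counts were 3 higher and 3 lower after centring. Of 24 listed, 13 had a mean level outside the range tested. Cux2, an upper-layer factor, held 18 tiles higher in blood and none lower, of 35 tested. Pax6, a regulator of neural progenitors, held 9 lower in blood and none higher, of 13 tested, and had 6.47, 8.66 and 7.41% over the gene in blood, against 12.6, 14.5, 15.8 and 12.5% in cortex. Neurod2 and Olig2 had a mean under 5% over both groups and were not tested.

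Among glial genes those of oligodendrocytes were higher in blood in 7 of 9 tested members (77.8%), none was lower and the median was 9.48 points, and centring left these counts as they were. Cnp had 35, 34.8 and 34.2% in blood, against 20.8, 22.9, 20.4 and 21.1% in cortex. Mbp, myelin basic protein, averaged 48.9 ± 1.75% in blood and 35.9 ± 1.64% in cortex, and Mog 84.6 ± 1.21% in blood and 72.8 ± 5.35% in cortex. The groups did not overlap in these 3 genes. Of 9 astrocyte markers 4 were higher (44.4%) and 1 lower (11.1%; 1 and 1 after centring, median 4.08 points). Aqp4, the water channel of astrocyte endfeet, had 69.4, 77.5 and 67.2% in blood, against 30.9, 33.5, 33.6 and 25.8% in cortex. Aldh1l1 went the other way over the whole gene as it did at its start, with 15.4, 13.8 and 9.06% in blood, against 46.7, 44.1, 43.3 and 41.2% in cortex. Of 8 microglia markers 1 was higher (12.5%) and 2 lower (25%; median 0.432 points, 1 and 3 after centring). The lower ones were P2ry12 (67.7 ± 0.375% in blood and 81.1 ± 2.05% in cortex) and Tmem119 (65.8 ± 1.92% in blood and 75.9 ± 3.09% in cortex). Of 13 endothelial and pericyte genes 1 was higher (7.69%) and 2 lower (15.4%; median -0.153 points, 0 and 2 after centring). The higher one, Pdgfrb, lost its call without blood library 1 or 2 or cortex library 1 or 4, and the count of lower genes was 1 without blood library 3 or cortex library 2 or 3.

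**Figure D4:**
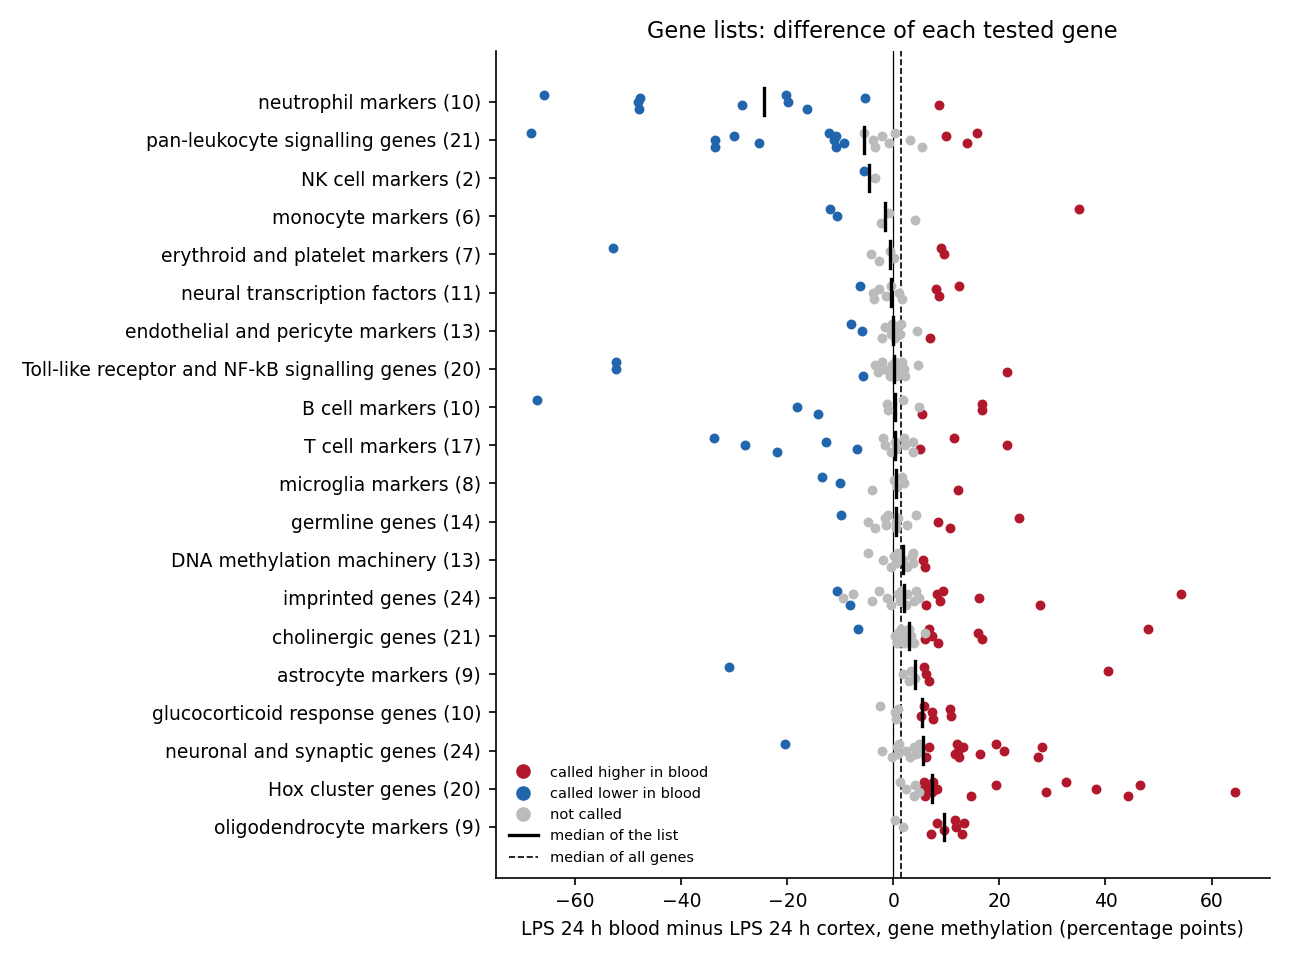
Difference in gene methylation, blood minus cortex in percentage points (linear axis), for each tested gene of the 20 lists, with a black bar at the list's median. The dashed line marks the median of all 11560 genes, 1.43 points. Pan-leukocyte, B cell and neutrophil genes reach furthest below 0, and Hox, imprinted and cholinergic genes furthest above.

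Hox genes, the clustered homeobox genes that pattern the body axis, were higher in blood in 15 of 20 tested members (75%) and lower in none (11 and none after centring), with a median of 7.34 points. Of 39 listed, 19 had a mean level outside 5 to 95% and were not tested. Hoxa3 had 47.1, 52.3 and 43.2% in blood, against 2.59, 3.17, 4.72 and 2.20% in cortex over 313 cytosines. Hoxa5 had 67.1, 77.7 and 60.5% in blood, against 2.35, 4.20, 7.49 and 2.24% in cortex, and Hoxa6 averaged 50.4 ± 6.39% in blood and 3.93 ± 1.86% in cortex. Blood library 2 was the highest and library 3 the lowest in all 3 genes, and the lowest blood library was at least 38.1 points above the highest cortex library. By cluster, all 5 tested genes of HoxA, 4 of 5 of HoxB, 3 of 6 of HoxC and 3 of 4 of HoxD were called higher. Neighbouring Hox genes share cytosines, so they are not separate observations. Tiles touching Hoxa3 were called higher in 13 of 14 tested and lower in none, while the tile chr15:102978001-102979000 at Hoxc9 was lower in blood (4.87 ± 1.06% in blood and 22 ± 3.77% in cortex).

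Imprinted genes, methylated according to the parent of origin, gave 7 higher (29.2%) and 2 lower (8.33%) of 24 tested, near the shares over all genes (median 1.97 points, 6 and 3 after centring). Mcts2 had 89.6, 93.6 and 88.1% in blood, against 30.1, 39.6, 41.7 and 33.0% in cortex, and H13, which overlaps it, 75.7, 78.6 and 74.7% in blood, against 45.8, 51.3, 50.5 and 47.0% in cortex. Igf2r had 47.8, 49.7 and 41.5% in blood, against 30.4, 31.1, 32.3 and 27.4% in cortex. Peg3, Mest, Snrpn, Grb10, Plagl1 and Peg10, further imprinted genes, were not called. Impact (33.2 ± 6.60% in blood and 41.4 ± 2.49% in cortex) passed narrowly with groups that overlapped (limma adjusted p = 0.0381), and it lost the call when blood library 1 or 3 or cortex library 1, 2 or 4 was left out. The count of lower imprinted genes was 5 without blood library 2, and 1 without blood library 1 or 3 or cortex library 1 or 2. Of 14 germline genes 3 were higher (21.4%) and 1 lower (7.14%), also near those shares (median 0.579 points, 3 and 3 after centring), led by Ddx4, the germ cell RNA helicase, with 93.1, 96.4 and 94.3% in blood, against 73.3, 69.4, 73.3 and 67.6% in cortex.

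Genes tied to the exposures were also compared. The pathway LPS acts through, signalling by Toll-like receptors and NF-kB, had 20 tested genes, of which 1 was higher (5.0%) and 3 lower (15%). The median was 0.0957 points, and the counts were 1 and 4 after centring and 2 and 2 without blood library 3. Tlr3 lost its call without blood library 3 or cortex library 3. Tnf had 88.5, 91.5 and 87.6% in blood, against 68.4, 68.3, 67.3 and 66.8% in cortex over 5 cytosines. The chemokine genes Ccl3 and Ccl4, measured by the same 5 cytosines and so not separate observations, had 35.9, 36.2 and 28.8% in blood, against 84.8, 90.5, 89.1 and 79.6% in cortex. In neither case did the groups overlap.

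Of 10 glucocorticoid response genes 6 were higher in blood (60.0%) and none lower (4 and none after centring, median 5.49 points). Klf9, a glucocorticoid-induced transcription factor, had 16.5, 16.9 and 16.9% in blood, against 5.70, 6.67, 5.92 and 5.66% in cortex. Its 3 tested tiles were all called higher, up to 93.2 ± 1.17% in blood and 11.1 ± 1.69% in cortex at chr19:23159001-23160000. Fkbp5, the co-chaperone of the glucocorticoid receptor, averaged 7.65 ± 0.249% in blood and 7.40 ± 0.215% in cortex and did not pass (limma adjusted p = 0.467), and its sign changed on centring. Nr3c1, the receptor itself, averaged 5.46 ± 0.283% in blood and 1.46 ± 0.12% in cortex, under the range tested.

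Of 21 cholinergic genes, the system DFP acts on, 7 were higher (33.3%) and 1 lower (4.76%; 5 and 1 after centring, median 2.95 points), and the lower one, Chrna9, lost its call without blood library 3. Chrm1, a muscarinic receptor, had 89.1, 90.5 and 87.0% in blood, against 42.4, 41.6, 41.2 and 38.5% in cortex, a difference of 48.0 ± 1.37 points (SE, limma adjusted p = 1.59e-07). Ache, which encodes acetylcholinesterase, averaged 5.84 ± 0.397% in blood and 5.21 ± 0.931% in cortex and did not pass (limma adjusted p = 0.329), and its sign also changed on centring. Of 13 genes of the DNA methylation machinery 2 were higher (15.4%) and none lower (median 1.81 points, none and 1 after centring). Tet2 averaged 24.8 ± 0.887% in blood and 19.3 ± 0.77% in cortex, and Dnmt3a 22.5 ± 1.26% in blood and 18.7 ± 0.816% in cortex, below the 5 points needed for a call.

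Regions within 1000 bp of a transcript start were tested where they held at least 5 cytosines and a mean of 5 to 95%. Of 1450 such starts 518 were higher in blood (35.7%) and 242 lower (16.7%), and the split was 409 and 307 after centring. Among the 10 largest in each direction, picked here after their values were seen, were Agap2, Akap6 (a kinase anchor of muscle and brain), Lrrc4 (a synaptic adhesion protein) and Ghrh (growth hormone-releasing hormone) among those higher in blood, and Tnfsf14 (a TNF family cytokine of lymphocytes), Il12a (a subunit of interleukin 12), Ubash3a (a regulator of T cell receptor signalling), Gimap1 and Dok3 among those lower. Lrrc4 had 91.7, 93.9 and 92.7% in blood, against 16.6, 24.8, 26.2 and 19.5% in cortex. Tnfsf14 had 2.94, 1.66 and 1.30% in blood, against 79.1, 81.6, 83.1 and 75.5% in cortex. Il12a had 1.83, 1.82 and 1.65% in blood, against 75.6, 81.6, 77.8 and 81.6% in cortex. At these 3 starts the groups lay far apart, and the blood libraries were closer to each other than the cortex libraries were.

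The same contrast of blood and cortex could be drawn in libraries that share none with the 24 h comparison. At LPS 6 h 17513 of 65836 tiles were higher in blood (26.6%) and 7639 lower (11.6%), and at LPS 12 h 16564 of 57340 were higher (28.9%) and 5838 lower (10.2%). In saline libraries the split was even, with 11579 higher (17.6%) and 11509 lower (17.5%) of 65803. Across tiles, which are not independent, the 24 h difference correlated with that at 6 h at r = 0.978 (61163 tiles), at 12 h at r = 0.977 (54505) and in saline at r = 0.605 (63853). Of the tiles higher at 24 h and tested there, 91.0% were also higher at 6 h, 94.0% at 12 h and 55.3% in saline. Of those lower, 84.5% were also lower at 6 h, 76.8% at 12 h and 51.7% in saline. Calls in the opposite direction numbered at most 3 at either LPS time in each direction, whereas in saline 1754 tiles higher at 24 h were called lower and 359 lower at 24 h were called higher.

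The saline blood libraries stood apart. Over tiles, blood libraries correlated among themselves at 0.991 to 0.994 within LPS 24 h, but only at 0.923 to 0.927 between LPS 24 h and saline. For cortex the correlation between LPS 24 h and saline was 0.988 to 0.994. Blood and cortex correlated at 0.884 to 0.898 under LPS 24 h and at 0.925 to 0.933 under saline. The share of cytosines at 20 to 80% was 15.8 to 16.3% in saline blood, against 9.59 to 13% in LPS 24 h blood. LPS 24 h and saline libraries differ in the injection and in the time of sampling, while the LPS 6 h libraries were taken at the same time as saline and are given beside both.

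Tiles chosen for their call at 24 h were followed in the other libraries. Those called higher had a median difference of 25 points at 24 h, 25.5 at 6 h, 28.5 at 12 h and 12.2 in saline, and those called lower -22.7, -20.7, -19.6 and -10.7 points. The called tiles that were higher had median levels of 87.1% in LPS 24 h blood, 55.4% in LPS 24 h cortex, 69.5% in saline blood and 54.0% in saline cortex. Those that were lower had median levels of 36.3% in LPS 24 h blood, 75.3% in LPS 24 h cortex, 59.1% in saline blood and 74.2% in saline cortex. The test of the difference itself, the LPS 24 h difference minus the saline difference, called 13796 of 66561 tiles positive (20.7%) and 5235 negative (7.86%). For genes it called 2016 of 11505 positive (17.5%) and 488 negative (4.24%).

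All 20 named tiles kept their direction at each time. The 10 that were higher at 24 h differed by 76.5 to 86.8 points at 6 h, by 82.7 to 90.3 at 12 h and by 19.3 to 72.7 in saline. The 10 that were lower differed by -87.0 to -77.5 points at 6 h (9 tiles, since Gsr had no value), by -91.2 to -77.0 at 12 h and by -69.7 to -21.4 in saline. In Runx1 saline blood averaged 35.5 ± 4.38%, in Rasal3 22.5 ± 2.21% and in P2rx7 68.7 ± 4.00% (SD, n = 4). At the same 6 h LPS blood averaged 90.0 ± 4.84% in Runx1, 84.6 ± 5.00% in Rasal3 and 8.59 ± 7.17% in P2rx7 (SD, n = 4). In all 19 named tiles with a value at LPS 6 h, the difference there was nearer to that at LPS 24 h than to that in saline. These tiles were chosen for their difference at LPS 24 h, and the like count over all tiles was not made. Smarcd1 was the nearest to its LPS level among the higher tiles, with 78.7 ± 3.47% in saline blood, and Gsr among the lower, with 19.5 ± 2.46%.

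**Figure D5:**
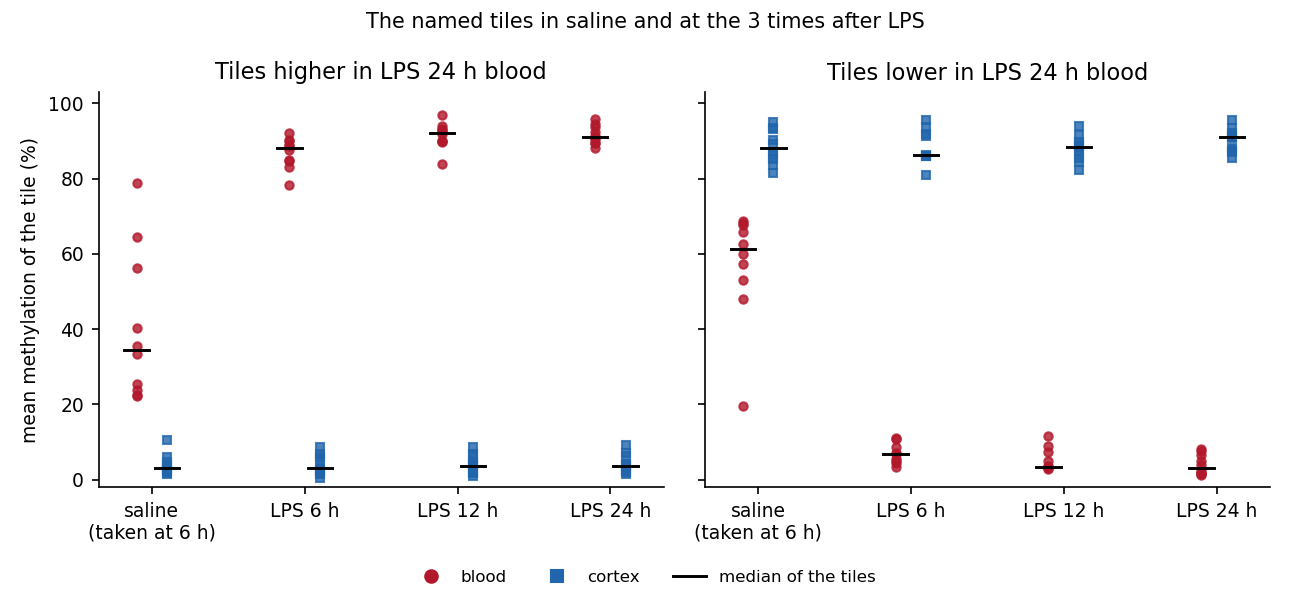
Mean percent methylation (y axis, linear) of the 20 named tiles under saline and at 6, 12 and 24 h after LPS, with blood in red beside cortex in blue, a point for each tile and a bar at the median. Blood levels at 6 h and 12 h lie with those at 24 h, saline blood lies between blood under LPS and cortex, and cortex is at like levels in all 4 groups.

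Genes differed in how far saline blood stood from cortex. Spi1 averaged 66.9% in saline blood and 77.1% in saline cortex, and the LPS 24 h difference minus the saline one was -58.1 points (limma interaction adjusted p = 1.41e-08). At LPS 6 h, the time of the saline libraries, Spi1 differed by -65.1 points between blood and cortex. Aqp4 averaged 30.2% in saline blood and 29.7% in saline cortex, a difference of 0.501 points, and the contrasts differed by 39.9 points (limma interaction adjusted p = 4.55e-07). Chrm1 averaged 41.1% in saline blood and 43.8% in saline cortex, and the contrasts differed by 50.7 points (limma interaction adjusted p = 8.11e-09). Igf2r averaged 46.0% in saline blood and 29.7% in saline cortex, and its contrasts differed by -0.236 points, which did not pass (limma interaction adjusted p = 0.956). Nor did the contrasts of Vip (-3.32 points apart), Slc1a3 (-1.20), P2ry12 (-0.982) and Pax6 (-0.879) pass, with interaction adjusted p from 0.536 to 0.744.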

How the data were processed

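Per the labels' protocols, an Ovation kit for RRBS was used on 100 ng of DNA a library. The authors deposited tables of percent methylation per cytosine and strand, 7 of which were read here. Bismark, Bowtie2, methylKit, SAMtools, FastQC and Trim Galore and the build GRCm38/mm10 are named, with no order, per the submitters' processing notes. Versions, settings, coverage minimum and any normalization: not given in the sources used here. Without read counts in these tables depth is unknown, and no counting interval is given. Unused per-sample columns numbered 0.

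Groups came from the labels. Cytosines found in both 24 h tables were kept and averaged over 1000 bp tiles (at least 3 cytosines), genes with 1000 bp on each side (at least 5) and regions within 1000 bp of a transcript start (at least 5, for each gene the start with the most cytosines). Gene spans and starts came from RefSeq tables of GRCm38.p6, which give no exons. All 145612 cytosines inside the promoter sequences were a C on the listed strand. Features with a mean of the group means of 5 to 95% were fitted with limma 3.58.1 in R 4.3.3 with arrow 21.0.0 (eBayes with a mean trend, two-sided p-values adjusted by Benjamini-Hochberg over all features of the fit). Calls needed an adjusted p under 0.05 and 10 points for tiles and cytosines or 5 points for genes and starts. The change of the difference between LPS 24 h and saline was an interaction contrast over all 4 groups. Library means were compared by exact permutation, two-sided, whose smallest p for 3 against 4 libraries is 0.0571. Other steps used scipy 1.17.1, pandas 2.3.3, numpy 2.4.6 and, for figures, matplotlib 3.10.9 in Python 3.11.15. The limma step was tested on simulated data.

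Named tiles were the 10 largest called differences in each direction with at least 5 cytosines, no overlap and 1 protein-coding gene in reach. Named genes were up to 3 called members per list and direction, 27 genes fixed by name (1 of them not reported here), runs of the greatest length, and the starts with the largest difference among these. The comparison, the 20 lists and these rules were chosen with earlier results of these data known. Alternatives were leaving out each library, other minimum differences and cytosine numbers, 500 bp tiles, the gene span alone, no limit on the mean level, no trend, a log-ratio scale, centring on library means and a replicate block. Those for transcript starts were added after seeing the data.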

Additional observations from a re-analysis of the deposited data

Results flagged for a closer look

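In 110 groups of 4 libraries among the named tiles and genes, 3 held a library far from the others, where chance flags about 1 in 20. In the Runx1 tile cortex library 2 stood at 6.78%, with the others at 2.24 to 2.76%. In the Hoxb3 tile cortex library 1 stood at 1.57%, with the others at 2.47 to 2.51%. Over the gene Nfe2 cortex library 4 stood at 30.4%, with the others at 28.7 to 29.0%.

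The difference of blood and cortex under LPS 24 h departed from that under saline in all 20 named tiles, by limma's interaction contrast (adjusted p of at most 0.0189). The LPS 24 h difference minus the saline difference was 60.2 points for Runx1, 35.1 for Hoxb3, 68.3 for Rasal3, 63.6 for Carmil2, 24.6 for Casz1, 63.6 for Sipa1, 13.9 for Smarcd1, 50.1 for Taok3, 64.4 for Agap2 and 66.6 for Ccm2l. It was -67.9 points for P2rx7, -62.5 for Shisal1, -63.2 for Tspoap1, -16.2 for Gsr, -63.3 for Septin9, -55.4 for Itsn1, -54.7 for Cd247, -47.0 for Tapt1, -56.4 for Galnt2 and -62.3 for Rnf144b. All these tiles were chosen for a large difference under LPS 24 h, and the contrast uses those same values. The choice therefore bears on the count of 20 and on the size of the change. Over all tiles the contrast called 20.7% positive and 7.86% negative. Among tiles called higher at 24 h 46.6% were positive and 0.760% negative, and among those called lower 51.2% were negative and 4.29% positive.

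Of the 27 genes always named, 19 had values in the same test and 12 departed. Over all genes this test called 17.5% positive and 4.24% negative. The 27 genes were fixed with earlier results of these data known. The change was -58.1 points for Spi1, -46.2 for Cebpe, -47.4 for Pf4, -22.6 for Cd79b, -19.9 for Vav1 and -17.0 for Itgal, and 39.9 for Aqp4 and 19.7 for Dlg4. In the remaining 4 genes the means gave opposite signs under the 2 treatments, but in Syn1 and Impact 1 of the 2 signs was not settled. Ptprc changed by -23.9 points, with -9.22 under LPS 24 h and 14.7 under saline. Syn1 changed by 21.1 points, with 3.06 under LPS 24 h and -18.0 under saline. Tnf changed by 27.0 points, with 21.5 under LPS 24 h and -5.47 under saline, and Impact by -12.1, with -8.14 under LPS 24 h and 3.97 under saline. The LPS 24 h difference of Syn1 did not pass the test (limma adjusted p = 0.534), and its groups overlapped. The saline difference of Impact did not pass either (limma adjusted p = 0.193). Its LPS 24 h groups overlapped too, and that call was lost without some of the libraries. The saline libraries were taken at 6 h, as were the LPS 6 h libraries. In all 12 genes the difference at LPS 6 h was nearer to that at LPS 24 h than to that in saline (-65.1 points for Spi1, 35.5 for Aqp4 and 20.2 for Tnf at LPS 6 h). These 12 were already picked for a departure of LPS 24 h from saline. Of all 19 genes with values, 17 were nearer to LPS 24 h and 2, Cx3cr1 and Ache, nearer to saline. The like count over all genes was not made.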

How the results depend on the processing

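Leaving out 1 library at a time gave 16081 to 18192 tiles higher in blood and 7277 to 9437 lower, 2282 to 2863 genes higher and 753 to 1043 lower, 450 to 531 transcript starts higher and 226 to 268 lower, 85020 to 109958 cytosines higher and 44144 to 56625 lower, and 12255 to 14313 positive and 4561 to 6079 negative tiles in the interaction contrast. The mean over all cytosines then differed by 1.45 to 2.47 points. A minimum difference of 25 points left 8699 tiles higher and 3674 lower, and 67495 cytosines higher and 29077 lower. At least 10 cytosines a tile left 2168 higher and 941 lower of fewer tiles tested, and no minimum difference gave 5066 genes higher and 1445 lower. Centring on library means gave 1387 genes lower, and lifting the limit on the mean level gave 70600 cytosines higher and 34358 lower. Tiles of 500 bp gave 18128 higher and 8378 lower, and gene spans alone 2773 and 907. The 20 named tiles kept their direction and their call under every alternative run. Signs changed on centring for Ache (-1.40 points), Fkbp5 (-1.78) and Cx3cr1 (-1.92), and when 1 library was left out for Cx3cr1 (-0.870 to 0.903, negative without blood library 3 at -0.327 or cortex library 1 or 4) and Syn1 (-1.37 without blood library 2 to 7.94 without blood library 3). None of these passed the test in the main comparison, and the cause was not tested. Calls of Chrna9, Ebf1, Il2rb, Impact, Mbd2, Pdgfrb, Slc1a2, Slc1a3, Tet2, Tie1 (over the gene), Tlr3, Taf7l and Zap70 were lost under at least 1 alternative. Ptprc was not tested without blood library 2 or cortex library 2, since its mean level then fell under the range.

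Replicate numbers are shared by the tissues. Deviations of same-numbered libraries correlated at r = -0.0041, 0.0217 and 0.0326 over 66192 tiles, and those of unlike numbers at -0.0420 to 0.0353. Deviations between libraries may be technical, so these values cannot tell whether same-numbered libraries share a mouse. The main fit used no pairing. A replicate block, in which cortex library 4 has no partner and carries no information, gave 16889 tiles higher and 8526 lower, 2437 genes higher and 937 lower, 477 starts higher and 252 lower, and 12812 positive and 5401 negative tiles in the interaction contrast. Cx3cr1 was at -0.515 points under the block.

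With no read counts, tiles and genes of few cytosines were not weighted by depth, and no other minimum coverage was tried. The 3 blood libraries set the precision of most comparisons.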

Other observations

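Listed genes could hold a tile with a wider difference than their mean over the span. These tiles were picked as each listed gene's largest difference after the values were seen, and most held few cytosines. In Nr3c1, the glucocorticoid receptor gene, the tile chr18:39486001-39487000 averaged 87.6 ± 2.84% in blood and 19.4 ± 1.43% in cortex (SD, n = 3 and 4, 7 cytosines). In Sgk1, a glucocorticoid-induced kinase, the tile chr10:21998001-21999000 averaged 90.1 ± 3.02% in blood and 13.8 ± 2.20% in cortex over 11 cytosines. Per2, a clock gene, held a tile that was lower in blood, with 14.7 ± 8.09% in blood and 72.2 ± 5.55% in cortex over 3 cytosines. Of the enzymes that write and oxidise the mark, Dnmt3a held a tile at 32.8 ± 6.03% in blood and 3.06 ± 0.894% in cortex, and Tet3 one at 86.6 ± 2.58% in blood and 31.1 ± 2.41% in cortex.

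Imprinted regions beyond those described above showed tiles of both directions. Gnas held a tile (chr2:174334001-174335000) at 91.0 ± 3.76% in blood and 43.3 ± 8.54% in cortex, and Usp29, next to Peg3, one (chr7:6781001-6782000) at 89.3 ± 0.449% in blood and 33.3 ± 3.57% in cortex. In Kcnq1 the largest tile went the other way, with 17.1 ± 1.71% in blood and 67.8 ± 0.491% in cortex over 6 cytosines, while 7 of its 14 tested tiles were higher in blood and 3 lower. The gene means differed by 0.83 (Gnas), 4.85 (Usp29) and 4.27 points (Kcnq1) and were not called.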
